A study of Mus musculus with 20 samples.

Results

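Genes of the interferon response and of antigen presentation on MHC class I were followed in the hippocampus and amygdala of young mice whose neurons lacked 1 of 2 nuclear receptor corepressors. The set was chosen by gene symbol, with earlier results of these data known, so counts of members set against all genes are descriptive. Of 34 listed symbols, 33 were found among the 23412 genes measured in both tissues, and Ifi27 was dropped because it was not among them. RNA was taken at postnatal day 21 and sequenced in 20 libraries. Each tissue had 4 control libraries, 3 NCoR1-KO libraries and 3 SMRT-KO libraries. The knockouts were made with floxed NCoR1 or floxed SMRT alleles and the pan-neuronal driver Snap25-IRES2-cre, so that the deletion is directed to neurons, while glia, endothelium and immune cells of the same tissue keep the gene. The RNA came from whole tissue, in which fewer cells of a type and less RNA per cell cannot be told apart. The labels do not state whether the controls carried the driver or floxed alleles, nor that the libraries of a group are from different animals, and a p-value therefore weighs a difference against the scatter of these libraries alone, part of which may be technical.

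NCoR1 and SMRT are scaffold proteins that bring histone deacetylases to nuclear receptors and other transcription factors and so keep target genes low. Interferons are secreted alarm proteins. Type I interferons signal through the receptor pair Ifnar1 and Ifnar2 to a complex that includes Stat2 and Irf9 and binds the interferon-stimulated response element (ISRE), while genes induced by interferon gamma often carry the gamma-activated sequence (GAS). The induced genes include antiviral effectors, RNA sensors, immunity-related GTPases and the machinery that cuts proteins into peptides, carries them into the endoplasmic reticulum and loads them on MHC class I. In healthy brain these genes are kept at a low tonic level, found in microglia and endothelium as well as in neurons, and MHC class I proteins of neurons are known for a role in pruning of synapses during development.

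The promoters of 4 members are shown because they hold the ISRE core and belong to genes that the results below turn on: Isg15, a ubiquitin-like modifier, Ifit3, an antiviral effector, Gbp3, an interferon-gamma GTPase, and B2m, the invariant chain of MHC class I. Each sequence runs 5′ to 3′ on the strand of its gene, from 250 bases before to 50 bases after the annotated start (RefSeq, GRCm38.p6), with matches to the ISRE core in capitals. The windows are chr4:156200769-156201068 on the minus strand for Isg15, chr19:34583279-34583578 on the plus strand for Ifit3, chr3:142559794-142560093 on the plus strand for Gbp3 and chr2:122147437-122147736 on the plus strand for B2m.
Isg15: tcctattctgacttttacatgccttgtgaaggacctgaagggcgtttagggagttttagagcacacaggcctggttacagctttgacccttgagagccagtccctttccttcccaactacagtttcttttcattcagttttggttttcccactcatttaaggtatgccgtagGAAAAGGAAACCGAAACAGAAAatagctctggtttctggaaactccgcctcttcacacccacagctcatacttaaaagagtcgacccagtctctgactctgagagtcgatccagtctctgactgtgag
Ifit3: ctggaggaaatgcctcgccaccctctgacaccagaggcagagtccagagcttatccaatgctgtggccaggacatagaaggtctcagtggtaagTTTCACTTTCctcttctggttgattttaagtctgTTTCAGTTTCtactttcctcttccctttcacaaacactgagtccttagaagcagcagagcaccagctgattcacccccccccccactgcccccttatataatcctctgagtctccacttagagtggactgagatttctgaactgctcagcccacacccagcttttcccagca
Gbp3: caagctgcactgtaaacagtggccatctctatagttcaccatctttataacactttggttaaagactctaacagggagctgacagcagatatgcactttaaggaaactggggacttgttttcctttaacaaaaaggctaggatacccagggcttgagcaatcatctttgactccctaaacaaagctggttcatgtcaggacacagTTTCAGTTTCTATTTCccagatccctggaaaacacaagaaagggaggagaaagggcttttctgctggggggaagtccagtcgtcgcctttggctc
B2m: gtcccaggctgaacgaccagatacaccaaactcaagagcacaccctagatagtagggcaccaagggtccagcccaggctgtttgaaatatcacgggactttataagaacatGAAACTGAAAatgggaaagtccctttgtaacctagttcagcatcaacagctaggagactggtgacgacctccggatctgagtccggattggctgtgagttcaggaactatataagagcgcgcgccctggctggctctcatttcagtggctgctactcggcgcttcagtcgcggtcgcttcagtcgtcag

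The core searched was GAAA, any 2 bases and GAAA, on both strands, so that a match on the other strand reads TTTC, any 2 bases and TTTC. Isg15 had 3 overlapping matches, Ifit3 and Gbp3 had 2 each and B2m had 1, and the second annotated promoter of Gbp3 had 0. RefSeq promoter windows were found for 28 of the 33 members, and 15 of these, 53.6%, held the core in at least 1 window. Among all 27025 genes with a window the share was 3.99%, and over all 32851 windows of the same length it was 3.44%. By role, the core was found in 7 of 9 antiviral effectors, 3 of 3 interferon-gamma GTPases, 2 of 2 RNA sensors, 1 of 3 MHC class I genes, 1 of 4 signalling genes, 1 of 2 genes of ADP-ribosylation and ubiquitin-like modification, 0 of 3 genes of the immunoproteasome and peptide transport and 0 of 2 other interferon-induced genes. A GAS core, TTC, any 3 bases and GAA, which is its own reverse complement, was found for 8 of the 28 members, 28.6%, against 9.55% of all genes, and it overlapped an ISRE match in the promoters of Bst2 and Ifitm3. These matches describe the letters of a short window and not the binding of a factor.

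Between 13787 and 14509 genes reached 1 TPM (a transcript abundance scaled for transcript length and for the library total) in a library, and TPM keeps no sequencing depth, so that the counting error of each value is unknown. Ncor1 was at 41.9 to 61.1 TPM in hippocampus NCoR1-KO against 81.6 to 137 TPM in control, and at 32.1 to 39.0 TPM in amygdala NCoR1-KO against 71.3 to 127 TPM in control. Of 5 tested hippocampus markers, 4 were higher in control hippocampus than in control amygdala (limma, adjusted p under 0.05), while amygdala markers divided, with 3 of 6 lower and 1 higher in hippocampus. Hippocampus SMRT-KO 2 had 122 TPM of Slc17a6, a glutamate transporter gene that was at 5.14 to 21.4 TPM in the other hippocampus libraries, and hippocampus SMRT-KO 3 had the lowest hippocampus marker score. In what follows a score is the median, over a list, of the log2 deviation of each gene from its mean over the tissue.

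Control 1 stood apart for the interferon genes in both tissues. The labels do not state whether libraries of the same number come from the same animal, so its 2 libraries may not be independent observations. For the members and the pathway list, the number below control and the median are therefore given in each knockout with and without control 1. In hippocampus it was the highest of 10 libraries for 27 of 33 members, where it was the highest for 9.59% of all genes tested, and in amygdala for 22 of 33, against 16.2% of all genes. Its level was above those of the other 3 controls for 28 members in hippocampus and 29 in amygdala, with a median ratio to their mean of 1.76 and 1.51. Among all genes, 21.1% and 28.0% had control 1 above the other controls. The member score of control 1 was 0.65 in hippocampus, where the other controls lay between -0.03 and 0.14, and 0.51 in amygdala, where they lay between -0.25 and 0.21. At the low end, hippocampus SMRT-KO 3 was the lowest library for 15 members (30.1% of all genes), amygdala NCoR1-KO 2 for 14 (7.07%) and amygdala control 2 for 10 (11.9%).

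**Figure D1:**
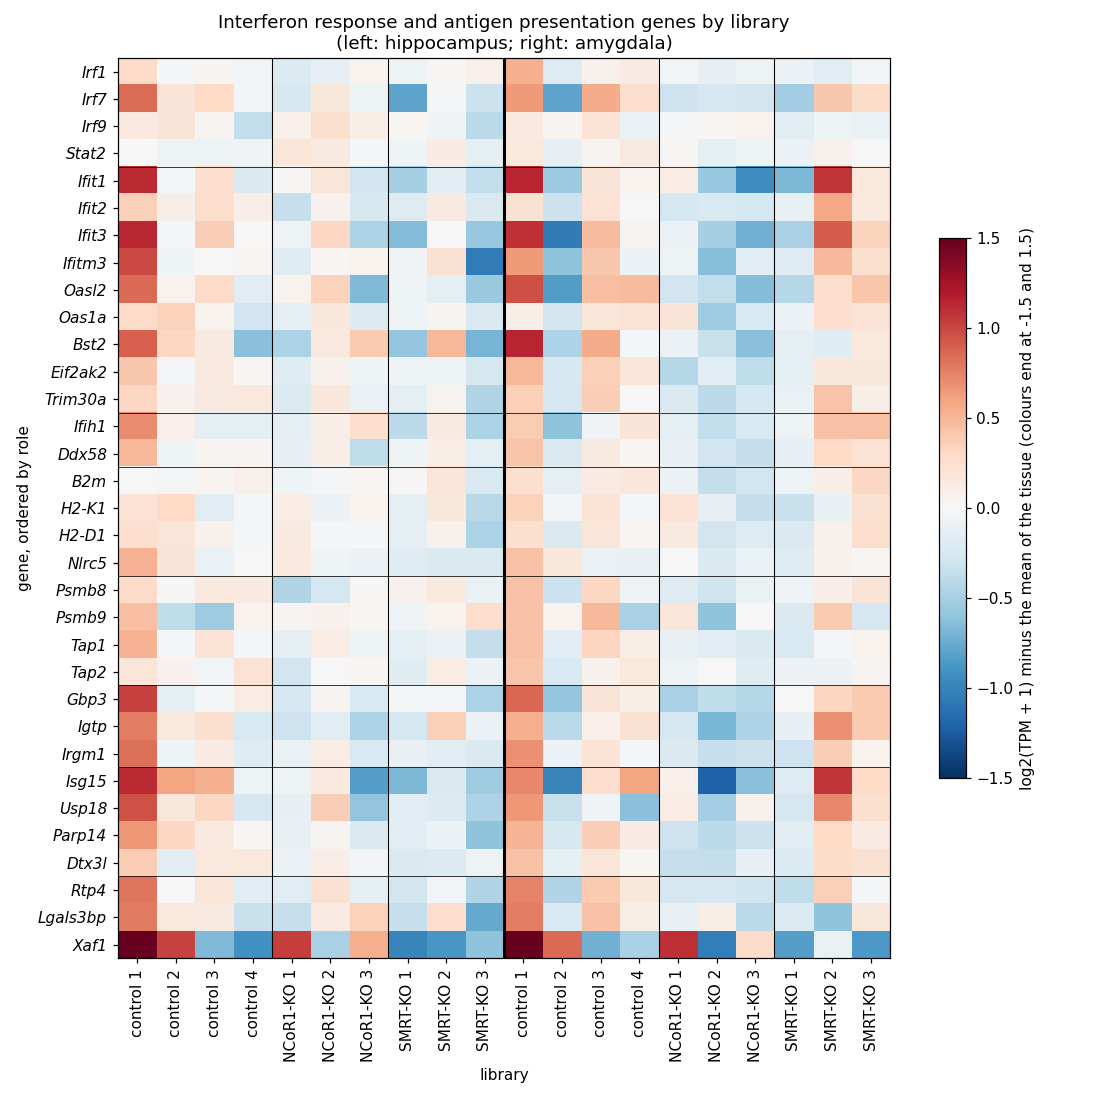
Heat map of log2(TPM + 1) minus the mean of the tissue for 33 genes (rows, ordered by role) in the 20 libraries (columns; hippocampus left, amygdala right; thin lines separate genotypes) with red above and blue below the mean. The first column of each tissue, control 1, is red in most rows, and Xaf1 in the bottom row has its own pattern.

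Red cell markers were also highest in control 1. The summed level of Hba-a1, Hba-a2 and Alas2, genes of hemoglobin and heme synthesis, was 2735 TPM in hippocampus control 1, where the lowest control had 1345 TPM, the NCoR1-KO libraries 1930 to 2344 TPM and the SMRT-KO libraries 1857 to 2669 TPM. In amygdala it was 3125 TPM in control 1, where the lowest control had 1541 TPM, the NCoR1-KO libraries 1778 to 2431 TPM and the SMRT-KO libraries 2147 to 2284 TPM. The microglia score of control 1 was -0.00 in hippocampus, within the range of the other 3 controls (-0.14 to 0.12), and 0.17 in amygdala, above their range (-0.13 to 0.12). Its endothelium score was -0.05 in hippocampus (others -0.16 to 0.07) and 0.20 in amygdala (others -0.21 to 0.13). The part of these cells in the level of control 1 was not tested. The interferon genes Ifnb1 and Ifna4 were listed at 0 in all 20 libraries, Ifng at 0.10 TPM or less and Ifne at 0.20 TPM or less. The receptors were present, with Ifnar1 at 24.8 to 35.5 TPM, Ifnar2 at 22.4 to 35.3 TPM, Ifngr1 at 17.8 to 25.96 TPM and Ifngr2 at 77.5 to 148 TPM over all libraries.

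Variation between control libraries was larger for the members than for most genes. The median SD of a member over the 4 controls was 0.37 on the log2(TPM + 1) scale in hippocampus and 0.35 in amygdala, against 0.11 and 0.12 for all genes tested. Of the members tested, 16 of 31 in hippocampus and 21 of 32 in amygdala lay above the 90th percentile of all genes in this SD.

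In control tissue the antigen presentation genes B2m, H2-D1 and H2-K1 were among the members with the highest TPM, and so was the effector Ifitm3. B2m was at 196 ± 6.22 TPM (SD, n = 4) in hippocampus and 232 ± 26.3 TPM in amygdala. Ifitm3, a membrane protein that blocks viral entry, followed with 39.6 ± 16.2 and 40.5 ± 14.8 TPM, and H2-D1, a classical class I heavy chain, with 36.1 ± 3.26 and 40.8 ± 5.63 TPM. H2-K1, the other classical heavy chain here, was at 26.9 ± 4.06 and 26.5 ± 3.65 TPM, and Lgals3bp, a secreted glycoprotein, at 20.3 ± 6.99 and 33.8 ± 10.3 TPM. The levels of Ifitm3, H2-D1, H2-K1 and Lgals3bp overlapped between controls in at least 1 tissue, so their order is not fixed beyond that spread. At the bottom, Nlrc5, the activator of class I transcription, was at 0.57 ± 0.31 and 0.62 ± 0.30 TPM, and Oas1a, which makes the messenger that activates RNase L, at 0.75 ± 0.33 and 1.51 ± 0.36 TPM. Nlrc5 did not reach the expression filter of 1 TPM in at least 3 of 10 libraries in either tissue and Oas1a did not in hippocampus, which left 31 members tested in hippocampus and 32 in amygdala.

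Control hippocampus and control amygdala differed in 2 members. Lgals3bp and Trim30a, a restriction factor of the TRIM family, were lower in hippocampus (limma, joint fit of 20 libraries over 14210 genes). The log2 difference was -0.71 ± 0.27 (SE) for Lgals3bp and -0.41 ± 0.15 for Trim30a, both with adjusted p = 0.0483, and for both genes the control libraries of the tissues overlapped. Among all genes 32.5% passed in this comparison, so 2 of 31 is a smaller share. Of the 31 members, 25 were lower in hippocampus, against 56.2% of all genes, with a median difference of -0.24 (all genes -0.03). With control 1 left out of both tissues, 25 were lower and the median was -0.22. Both calls depended on the libraries used: with control 1 left out of both tissues 1 member passed, Irf1, which was higher in hippocampus (0.28, adjusted p = 0.0411), and without amygdala control 2 the count was 8. The microglia markers were also lower in control hippocampus, 10 of 10 of them and 7 past the test, with a median difference of -0.34, and their part in the difference was not tested.

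Among the 101 other genes listed for the pathway, 80 were tested in both tissues, of which 1 was higher and 19 were lower in control hippocampus, where 13.2% of all genes were higher and 19.3% lower. MHC class II genes, which present outside antigen, made up 4 of the lower ones, and Cd74, the invariant chain, differed by -1.38 ± 0.23 (adjusted p = 0.000175). Of other MHC class I and peptide loading genes, 6 were lower, among them Tapbpl, a peptide editor, at -0.65 ± 0.10 (adjusted p = 9.89e-05). Socs3, a feedback inhibitor of cytokine signalling, was at -0.81 ± 0.12 (adjusted p = 5.19e-05), and the higher gene was Ifngr2 at 0.41 ± 0.09 (adjusted p = 0.00256).

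In hippocampus NCoR1-KO no member passed the test, and most were lower than in control. Of 31 tested members, 0 passed at an adjusted p under 0.05 (limma, over 14501 genes, where the share of all genes called was 0%). The knockout mean lay below the control mean for 27 of 31, against 50% of all genes, with a median log2 difference of -0.21 (all genes 8.2e-05). At an unadjusted p under 0.05 there were 4 lower members, Psmb8, Ifit2, Isg15 and Igtp, and 0 higher, while 2.65% of all genes were lower and 1.88% higher at that level. The libraries of the groups did not overlap for 1 member, Ifit2, which was lower, against 3.91% of all genes lower and 4.18% higher. Without control 1, 24 of 31 were below control, 1 was lower at an unadjusted p under 0.05 and the median difference was -0.09. Without NCoR1-KO 1 or NCoR1-KO 3 the count of lower members at that p was 1 as well, and without NCoR1-KO 3, 1 member was higher at that p. Without NCoR1-KO 2 the groups did not overlap for 11 lower members (9.96% of all genes), and without control 4 they did not for 5 (7.01%) and the median was -0.34.

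In hippocampus SMRT-KO most members again lay below control, and no member was called. Of 31 tested, 0 passed (0% of all genes), and 29 lay below control, against 56% of all genes, with a median log2 difference of -0.34 (all genes -0.02). At an unadjusted p under 0.05, 8 members were lower and 0 higher: Isg15, Parp14, Irf7, Ifit3, H2-D1, Tap1, Dtx3l and Trim30a. Of all genes 3.48% were lower and 2.13% higher at that level. The groups did not overlap for 5 lower and 0 higher members, against 2.71% and 2.07% of all genes. Without control 1, 28 lay below, 3 were lower at an unadjusted p under 0.05, and the median was -0.22. Without SMRT-KO 3, the library with the lowest member score (-0.40), the count was 3 and the median -0.23, without SMRT-KO 1 the count was 2, without NCoR1-KO 3, which enters only the spread, it was 5, and without SMRT-KO 2 it was 13. The groups did not overlap for 14 lower members without SMRT-KO 2 (8.64% of all genes) and for 12 without control 4 (6.13%). Both hippocampus comparisons share the same 4 controls.

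Amygdala NCoR1-KO was the comparison in which every tested member was below control. The difference was below 0 for 32 of 32 members, against 58.3% of all genes, with a median of -0.37 (all genes -0.03). Limma called 0 of the 32 over 14606 genes, of which 0.411% passed (0.397% lower and 0.0137% higher). At an unadjusted p under 0.05, 9 members were lower and 0 higher, namely Eif2ak2, B2m, Parp14, Irgm1, Dtx3l, Igtp, Trim30a, Tap1 and Gbp3, where 9.81% of all genes were lower and 3.3% higher at that level. The groups did not overlap for 2 members, Irgm1 and Parp14, both lower, against 8.43% of all genes lower and 3.68% higher. After quantile normalization 30 of 32 lay below. Without control 1, 30 of 32 lay below with 3 at an unadjusted p under 0.05 and a median of -0.25. Without control 2, the control with the lowest member score (-0.25), 24 were lower at that p, the groups did not overlap for 23 (16.5% of all genes), and Eif2ak2 passed (log2 difference -0.67, adjusted p = 0.0433). The count at an unadjusted p under 0.05 was 5 without control 3, 3 without NCoR1-KO 2 and 4 without NCoR1-KO 3, and without NCoR1-KO 1 the groups did not overlap for 9 members (11.7% of all genes).

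Microglia markers were lower in the same amygdala NCoR1-KO libraries. All 10 markers lay below control, 9 of them at an unadjusted p under 0.05 and 0 past the adjusted threshold, with a median difference of -0.29. Their summed level was 526 to 577 TPM in NCoR1-KO, 588 to 736 TPM in control and 699 to 749 TPM in SMRT-KO, and none was at 0 in any library. Markers of other non-neuronal cells lay below control as well. Endothelium markers did so for 9 of 10 (median -0.18, 3 at an unadjusted p under 0.05), those of mural cells and fibroblasts for 8 of 8 (-0.22, 2 at that p) and those of astrocytes for 6 of 6 (-0.20, 3 at that p). Oligodendrocyte markers were below for 6 of 6 (-0.24) and choroid plexus markers for 6 of 6 (-0.43), with 0 at that p in either list, and 0 markers of these 5 lists passed the adjusted threshold. Neuron markers were below for 1 of 6, which passed (median 0.08). The part of these cells in the interferon genes was not tested. In the hippocampus, where the members were also below control, microglia markers had a median difference of -0.11 in NCoR1-KO (8 of 10 below) and 0.02 in SMRT-KO (5 of 10 below). Other lists varied widely between hippocampus libraries. Choroid plexus markers summed to 32.5 to 3324 TPM in control, 62.5 to 11560 TPM in NCoR1-KO and 52.0 to 5774 TPM in SMRT-KO. Oligodendrocyte markers summed to 9817 to 18085 TPM, 12173 to 15213 TPM and 9107 to 26439 TPM in the same order. The part of these cells in hippocampus was not tested.

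Amygdala SMRT-KO showed no common direction. Of 32 members, 0 passed (0.11% of all genes, 0.0616% lower and 0.0479% higher), 20 lay below control and 12 above, against 58% of all genes below, and the median log2 difference was -0.04 (all genes -0.03). The unadjusted p was under 0.05 for 1 member, Irf9, which was lower, where 13.5% of all genes were lower and 8.42% higher at that level. The groups did not overlap for 0 members, against 12.2% of all genes lower and 5.85% higher. Without control 1, 12 lay below and the median was 0.05, without SMRT-KO 1, 12 lay below and it was 0.09, and without control 2, 28 lay below, 9 of them at an unadjusted p under 0.05 and 5 with no overlap (15.7% of all genes), with a median of -0.19. Without SMRT-KO 2 the median was -0.15, without SMRT-KO 3 -0.09, without control 4 -0.07 and without control 3 -0.02. Oligodendrocyte markers were above control in these libraries for 6 of 6 (median 0.83), all at an unadjusted p under 0.05 and 0 past the adjusted threshold, and their part was not tested. Amygdala SMRT-KO 2 had a member score of 0.30, SMRT-KO 3 of 0.17 and SMRT-KO 1 of -0.19.

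**Figure D2:**
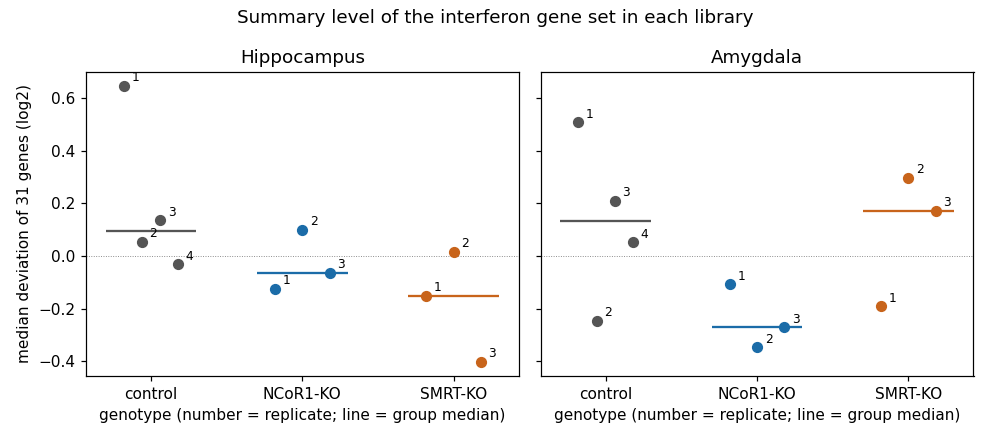
Score of the gene set (median log2 deviation of 31 genes from their tissue mean, vertical axis) in each library, by genotype (horizontal axis; numbers are replicates, lines are group medians), for hippocampus and amygdala. Control 1 is the top point of each panel, at 0.65 and 0.51, and the 3 amygdala NCoR1-KO libraries lie below 0.

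**Figure D3:**
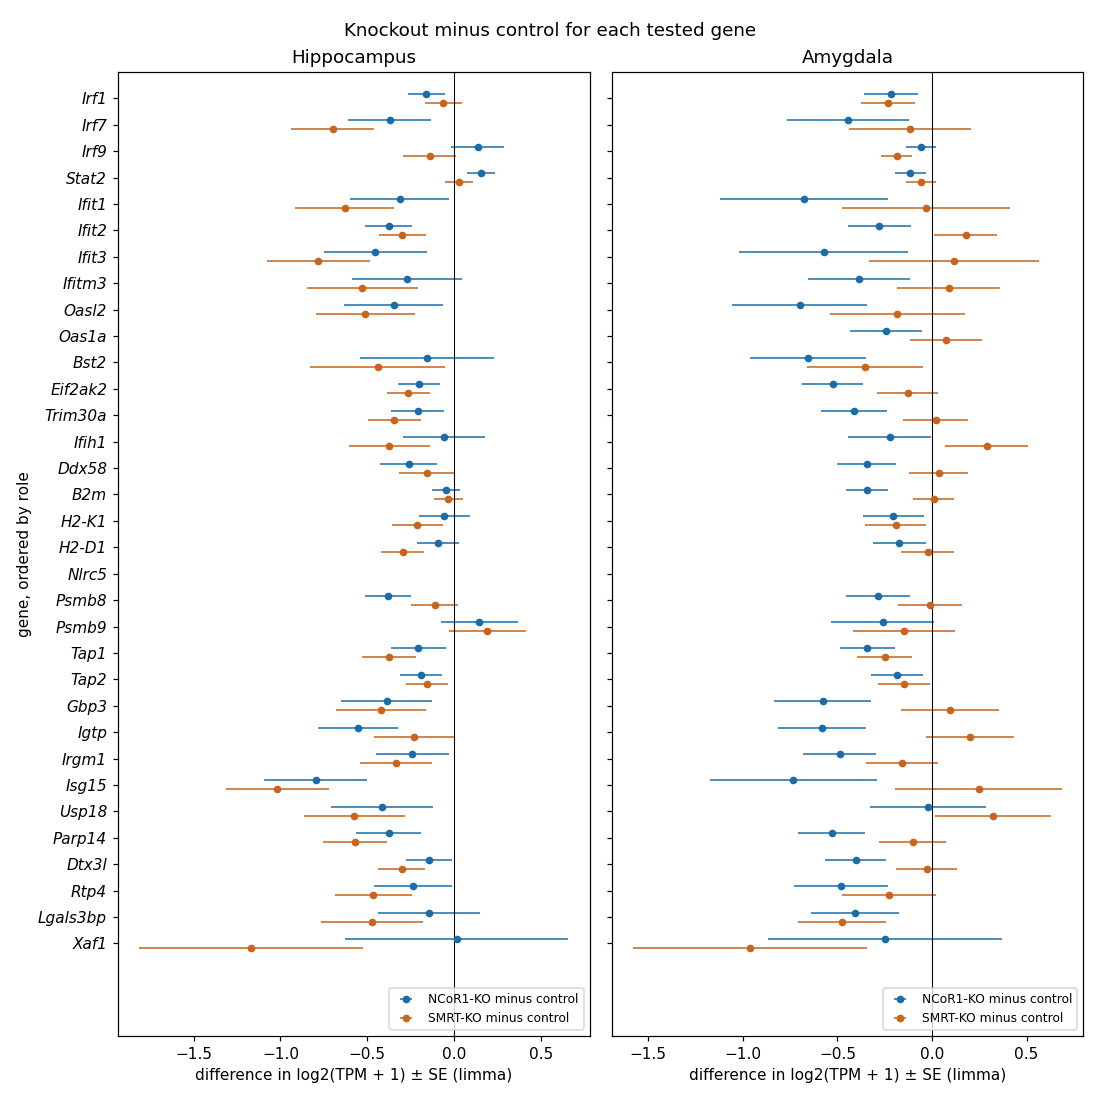
Difference in log2(TPM + 1), knockout minus control, with the standard error of limma (bars), for each tested gene (vertical axis, ordered by role) in hippocampus and amygdala; blue is NCoR1-KO and orange SMRT-KO. In hippocampus 27 and 29 of 31 points lie left of 0, and in amygdala 32 of 32 for NCoR1-KO and 20 of 32 for SMRT-KO.

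The signalling genes differed among themselves. Irf7, the factor that amplifies interferon production, was at 5.47, 3.13, 3.43 and 2.52 TPM in hippocampus controls 1 to 4, at 2.06, 3.07 and 2.42 TPM in NCoR1-KO 1 to 3 and at 1.09, 2.55 and 1.90 TPM in SMRT-KO 1 to 3. SMRT-KO 2 just reached into the control range and the other 2 lay below it. The log2 difference was -0.70 ± 0.24 in SMRT-KO and -0.37 ± 0.24 in NCoR1-KO. In amygdala its controls ranged over 6.64, 1.83, 6.19 and 4.86 TPM, NCoR1-KO stood at 2.93, 3.12 and 3.05 TPM and SMRT-KO at 2.41, 5.48 and 4.91 TPM. Control 2 was the lowest of all 10 there, so the groups overlapped (differences of -0.45 ± 0.32 and -0.11 ± 0.32).

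Stat2, a subunit of the type I complex, was one of the few members above control in hippocampus. It was at 19.4, 18.5, 18.5 and 18.8 TPM in controls, at 22.4, 21.6 and 19.2 TPM in NCoR1-KO and at 18.7, 21.3 and 17.7 TPM in SMRT-KO, with differences of 0.15 ± 0.08 and 0.03 ± 0.08. The controls were tight and NCoR1-KO 3 fell within them. Its amygdala levels were 19.3, 15.7, 17.7 and 18.9 TPM in controls, 17.4, 15.5 and 16.4 TPM in NCoR1-KO and 16.2, 18.1 and 17.1 TPM in SMRT-KO, with differences of -0.12 ± 0.08 and -0.06 ± 0.08.

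Irf9, the DNA-binding subunit of the type I complex, was the 1 amygdala SMRT-KO member at an unadjusted p under 0.05. The amygdala values were 16.04, 14.8, 16.8 and 13.4 TPM in controls, 14.2, 14.6 and 14.9 TPM in NCoR1-KO and 12.7, 13.7 and 13.4 TPM in SMRT-KO. The SMRT-KO libraries overlapped control 4 alone (-0.19 ± 0.08). In hippocampus it was at 13.6, 14.1, 12.5 and 9.17 TPM in controls, 12.9, 14.6 and 13.1 TPM in NCoR1-KO and 12.5, 11.8 and 8.96 TPM in SMRT-KO, with differences of 0.14 ± 0.15 and -0.14 ± 0.15. Irf9 overlaps Rnf31 on the same strand, so reads there can be assigned to either gene.

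Irf1, an interferon gamma target that activates antigen presentation genes, lay at 10.4, 8.23, 8.58 and 8.08 TPM in hippocampus controls, 7.07, 7.60 and 8.65 TPM in NCoR1-KO and 7.87, 8.43 and 8.81 TPM in SMRT-KO. The amygdala levels were 10.1, 5.70, 7.02 and 7.36 TPM in controls, 6.43, 6.02 and 6.23 TPM in NCoR1-KO and 6.21, 5.81 and 6.45 TPM in SMRT-KO. Apart from control 1 the groups overlapped in both tissues.

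Antiviral effectors lay below control throughout in 3 of the 4 comparisons with control. In hippocampus 8 of 8 tested effectors lay below control in NCoR1-KO and in SMRT-KO (medians of -0.29 and -0.48), and in amygdala NCoR1-KO 9 of 9 did (median -0.53). In amygdala SMRT-KO 4 of 9 lay below and 5 above (median 0.02). Without control 1, 7 of 8 and 8 of 8 lay below in hippocampus NCoR1-KO and SMRT-KO (medians of -0.13 and -0.29), 9 of 9 in amygdala NCoR1-KO (-0.33) and 2 of 9 in amygdala SMRT-KO (0.10).

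Ifit3, whose protein binds foreign RNA in a complex with other Ifit proteins, had 20.4, 8.64, 11.7 and 8.83 TPM in hippocampus controls, 8.25, 11.1 and 6.04 TPM in NCoR1-KO and 5.23, 8.71 and 5.58 TPM in SMRT-KO. Control 1 was well above the other controls, and SMRT-KO 1 and 3 lay below all controls. The differences were -0.45 ± 0.30 and -0.78 ± 0.30. In amygdala Ifit3 varied over 29.0, 5.73, 18.5 and 13.4 TPM in controls, with 12.2, 8.90 and 7.51 TPM in NCoR1-KO and 9.04, 25.3 and 16.7 TPM in SMRT-KO. The control range enclosed every knockout library there (-0.57 ± 0.45 and 0.12 ± 0.45).

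Ifit2, of the same family, had the hippocampus NCoR1-KO libraries (5.60, 7.82 and 6.12 TPM) all below the controls (9.73, 7.96, 9.08 and 8.03 TPM), by a margin of less than 0.2 TPM between NCoR1-KO 2 and control 2. The difference was -0.38 ± 0.13. SMRT-KO was at 6.34, 8.20 and 6.22 TPM (-0.30 ± 0.13). In amygdala the controls were at 12.3, 8.05, 12.1 and 10.2 TPM, NCoR1-KO at 8.41, 8.64 and 8.43 TPM (-0.28 ± 0.17) and SMRT-KO at 9.44, 15.9 and 11.6 TPM (0.18 ± 0.17).

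Eif2ak2 encodes PKR, the kinase that stops translation on double-stranded RNA. Its amygdala levels were 11.7, 6.58, 10.5 and 9.18 TPM in controls, 5.66, 6.97 and 5.90 TPM in NCoR1-KO and 7.22, 9.08 and 9.08 TPM in SMRT-KO. Control 2 alone reached down to the NCoR1-KO libraries, and the difference of -0.53 ± 0.16 had the smallest adjusted p of any member against control there (limma, adjusted p = 0.193). For SMRT-KO it was -0.13 ± 0.16. In hippocampus the controls had 9.86, 7.05, 8.10 and 7.34 TPM, NCoR1-KO 6.20, 7.59 and 6.83 TPM and SMRT-KO 6.83, 6.83 and 5.94 TPM, the last group below all controls (-0.20 ± 0.12 and -0.26 ± 0.12).

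Bst2 encodes tetherin, which holds budding virus on the cell. Its hippocampus levels were 16.7, 10.8, 9.46 and 5.15 TPM in controls, 5.84, 9.57 and 11.5 TPM in NCoR1-KO and 5.35, 12.4 and 4.87 TPM in SMRT-KO, and all groups overlapped widely (-0.15 ± 0.39 and -0.44 ± 0.39). The amygdala levels were 23.2, 6.97, 15.2 and 9.91 TPM in controls, 9.34, 7.73 and 6.11 TPM in NCoR1-KO and 9.07, 8.71 and 11.3 TPM in SMRT-KO (-0.66 ± 0.31 and -0.35 ± 0.31).

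Trim30a was lower than any control in every hippocampus SMRT-KO library, with 2.0, 2.42 and 1.42 TPM against 3.09, 2.45, 2.63 and 2.68 TPM (-0.34 ± 0.15), although SMRT-KO 2 and control 2 were nearly equal. NCoR1-KO was at 1.87, 2.72 and 2.09 TPM (-0.21 ± 0.15). In amygdala the controls had 4.8, 2.81, 4.87 and 3.53 TPM, NCoR1-KO 2.90, 2.45 and 2.77 TPM (-0.41 ± 0.17) and SMRT-KO 3.22, 5.08 and 3.84 TPM (0.02 ± 0.17). The other effectors Ifit1, Ifitm3, Oasl2 and Oas1a had no member at an unadjusted p under 0.05 in a knockout against control, with differences from -0.70 (Oasl2, amygdala NCoR1-KO) to 0.09 (Ifitm3, amygdala SMRT-KO).

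Both RNA sensors, Ifih1, which encodes MDA5, and Ddx58, which encodes RIG-I, overlapped between knockout and control in every comparison. Ifih1 was at 1.96 to 4.31 TPM in hippocampus controls and 1.35 to 2.88 TPM in the knockouts, and Ddx58 at 4.43 to 7.02 TPM and 3.36 to 5.11 TPM. In amygdala the differences were -0.22 ± 0.22 and -0.35 ± 0.16 in NCoR1-KO and 0.29 ± 0.22 and 0.03 ± 0.16 in SMRT-KO.

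The classical MHC class I genes and B2m had small differences, with medians of -0.06 and -0.21 in hippocampus NCoR1-KO and SMRT-KO and of -0.21 and -0.02 in amygdala. B2m was at 193, 190, 199 and 203 TPM in hippocampus controls, 184, 189 and 197 TPM in NCoR1-KO and 196, 218 and 165 TPM in SMRT-KO. The 4 controls lay close together, both knockouts overlapped them, and the differences were -0.05 ± 0.08 and -0.03 ± 0.08. In amygdala B2m was at 257, 195, 234 and 241 TPM in controls, 202, 167 and 176 TPM in NCoR1-KO and 205, 228 and 267 TPM in SMRT-KO. NCoR1-KO 2 and 3 were below every control and NCoR1-KO 1 was above control 2 only. The difference was -0.35 ± 0.11 (limma, adjusted p = 0.204) in NCoR1-KO and 0.01 ± 0.11 in SMRT-KO.

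H2-D1 was at 39.8, 37.7, 34.6 and 32.5 TPM in hippocampus controls, 36.5, 32.3 and 32.4 TPM in NCoR1-KO and 30.2, 34.7 and 23.6 TPM in SMRT-KO. SMRT-KO 3 was the lowest of the 10 libraries and SMRT-KO 2 lay among the controls (-0.09 ± 0.12 and -0.30 ± 0.12). In amygdala the controls were at 46.1, 33.3, 44.1 and 39.7 TPM, NCoR1-KO at 42.7, 31.8 and 33.8 TPM and SMRT-KO at 33.2, 40.7 and 46.8 TPM (-0.17 ± 0.14 and -0.02 ± 0.14).

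H2-K1 had 29.5, 31.1, 22.5 and 24.6 TPM in hippocampus controls, 27.2, 23.6 and 26.3 TPM in NCoR1-KO and 22.6, 28.4 and 18.7 TPM in SMRT-KO (-0.06 ± 0.15 and -0.21 ± 0.15). In amygdala it had 30.95, 23.5, 28.1 and 23.6 TPM in controls, 28.3, 22.1 and 18.7 TPM in NCoR1-KO and 18.9, 22.3 and 28.6 TPM in SMRT-KO (-0.21 ± 0.16 and -0.19 ± 0.16). The groups overlapped in both tissues. H2-K1 and H2-D1 are near-identical over much of their length and reads may be divided between them by the counting, which holds as well for the members of the Ifit, Oas, Gbp, immunity-related GTPase and Trim30 families.

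Of the immunoproteasome, the protease form that cuts peptides for class I, Psmb8 had the smallest unadjusted p among the members in hippocampus NCoR1-KO. It was at 4.92, 3.91, 4.38 and 4.34 TPM in controls, 2.55, 3.03 and 3.92 TPM in NCoR1-KO and 4.07, 4.35 and 3.54 TPM in SMRT-KO. NCoR1-KO 3 was just above control 2, the lowest control, and the other 2 lay below it (-0.38 ± 0.13, limma, adjusted p = 0.998). For SMRT-KO the difference was -0.11 ± 0.13. Its amygdala levels were 7.39, 3.94, 6.65 and 4.88 TPM in controls, 4.40, 4.01 and 4.78 TPM in NCoR1-KO and 4.89, 5.63 and 6.08 TPM in SMRT-KO (-0.29 ± 0.17 and -0.01 ± 0.17). Psmb9, another catalytic subunit, was above control in hippocampus, at 0.15 ± 0.22 in NCoR1-KO and 0.19 ± 0.22 in SMRT-KO, with groups that overlapped.

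Tap1 is a subunit of the pump that carries peptides into the endoplasmic reticulum. In hippocampus it was at 4.38, 2.71, 3.30 and 2.71 TPM in controls, 2.38, 3.06 and 2.58 TPM in NCoR1-KO and 2.38, 2.51 and 1.92 TPM in SMRT-KO. The 3 SMRT-KO libraries were below all 4 controls (-0.37 ± 0.16), and NCoR1-KO 2 lay among the controls (-0.21 ± 0.16). The amygdala levels were 4.41, 2.58, 4.0 and 3.27 TPM in controls, 2.68, 2.56 and 2.44 TPM in NCoR1-KO and 2.40, 2.90 and 3.12 TPM in SMRT-KO (-0.34 ± 0.15 and -0.25 ± 0.15). Its partner Tap2 differed by -0.15 to -0.19 in the 4 comparisons, none at an unadjusted p under 0.05.

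All 3 interferon-gamma GTPases, proteins that attack the vacuoles of intracellular microbes, had an unadjusted p under 0.05 in amygdala NCoR1-KO. Igtp was at 8.41, 3.87, 5.80 and 6.57 TPM in amygdala controls, 4.41, 3.01 and 3.66 TPM in NCoR1-KO and 4.89, 9.37 and 7.42 TPM in SMRT-KO. Only control 2 overlapped with NCoR1-KO, and SMRT-KO 2 was the highest of the 10 libraries (-0.58 ± 0.23 and 0.20 ± 0.23). In hippocampus it was at 7.22, 4.39, 4.71 and 3.10 TPM in controls, 2.89, 3.29 and 2.46 TPM in NCoR1-KO and 3.02, 5.18 and 3.54 TPM in SMRT-KO (-0.55 ± 0.23 and -0.23 ± 0.23). Igtp overlaps Irgm2 on the same strand. Igtp (chr11:58199556-58207591) and Irgm1 (chr11:48861968-48871683) are among the 5 members on chromosome 11, which also holds Ncor1 (chr11:62316426-62458541). Whether this position bears on their values was not tested.

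Gbp3 showed the distance of control 1 most plainly among the GTPases: its hippocampus controls were at 11.97, 4.76, 5.24 and 5.88 TPM, with 4.33, 5.56 and 4.43 TPM in NCoR1-KO and 5.24, 5.21 and 3.59 TPM in SMRT-KO. The other 3 controls overlapped with both knockouts (-0.39 ± 0.26 and -0.42 ± 0.26). Its amygdala levels were 12.4, 3.96, 7.47 and 6.88 TPM in controls, 4.28, 4.66 and 4.48 TPM in NCoR1-KO and 6.41, 8.25 and 8.68 TPM in SMRT-KO (-0.58 ± 0.26 and 0.10 ± 0.26). Without control 1 the differences of Gbp3 were -0.13 ± 0.16 and -0.16 ± 0.16 in hippocampus NCoR1-KO and SMRT-KO and -0.34 ± 0.19 and 0.33 ± 0.19 in amygdala.

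Irgm1, a regulator of these GTPases, was 1 of the 2 members whose amygdala NCoR1-KO libraries all lay below the controls, with 10.5, 9.51 and 9.72 TPM against 20.6, 11.6, 14.4 and 12.1 TPM (-0.49 ± 0.19). SMRT-KO was at 9.81, 16.3 and 12.8 TPM (-0.16 ± 0.19). In hippocampus the controls had 19.3, 9.94, 11.5 and 9.10 TPM, NCoR1-KO 9.76, 11.4 and 8.83 TPM and SMRT-KO 9.65, 9.27 and 8.89 TPM (-0.24 ± 0.21 and -0.33 ± 0.21).

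Isg15, which is joined to other proteins after interferon exposure, had the lowest difference of the 31 members in hippocampus NCoR1-KO and the smallest unadjusted p of the 31 in hippocampus SMRT-KO. Its hippocampus levels were 7.73, 5.04, 4.82 and 2.81 TPM in controls 1 to 4, 2.79, 3.44 and 1.27 TPM in NCoR1-KO and 1.51, 2.46 and 1.77 TPM in SMRT-KO. The SMRT-KO libraries were all below the lowest control, and so were NCoR1-KO 1, narrowly, and NCoR1-KO 3. The differences were -0.80 ± 0.30 and -1.02 ± 0.30 (limma, adjusted p = 0.998 and adjusted p = 0.779). In amygdala the controls spread over 9.04, 2.08, 6.29 and 8.19 TPM, with 5.44, 1.63 and 2.95 TPM in NCoR1-KO and 4.34, 11.8 and 6.49 TPM in SMRT-KO, so that the groups overlapped (-0.73 ± 0.44 and 0.25 ± 0.44). Without control 1 the hippocampus differences of Isg15 were -0.60 ± 0.28 and -0.83 ± 0.28.

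Parp14, an enzyme of ADP-ribosylation, had no overlap with control in hippocampus SMRT-KO and in amygdala NCoR1-KO. It was at 3.59, 2.64, 2.24 and 1.99 TPM in hippocampus controls, 1.71, 2.02 and 1.53 TPM in NCoR1-KO and 1.62, 1.75 and 0.93 TPM in SMRT-KO (-0.38 ± 0.19 and -0.57 ± 0.19). The amygdala levels were 4.50, 2.26, 4.0 and 3.22 TPM in controls, 2.12, 1.94 and 2.10 TPM in NCoR1-KO and 2.45, 3.76 and 3.22 TPM in SMRT-KO (-0.53 ± 0.18 and -0.10 ± 0.18). Dtx3l, a ubiquitin ligase, differed by -0.30 ± 0.13 in hippocampus SMRT-KO and -0.40 ± 0.16 in amygdala NCoR1-KO. Usp18, which removes Isg15 from proteins, differed by -0.57 ± 0.29 in hippocampus SMRT-KO and -0.02 ± 0.31 in amygdala NCoR1-KO.

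**Figure D4:**
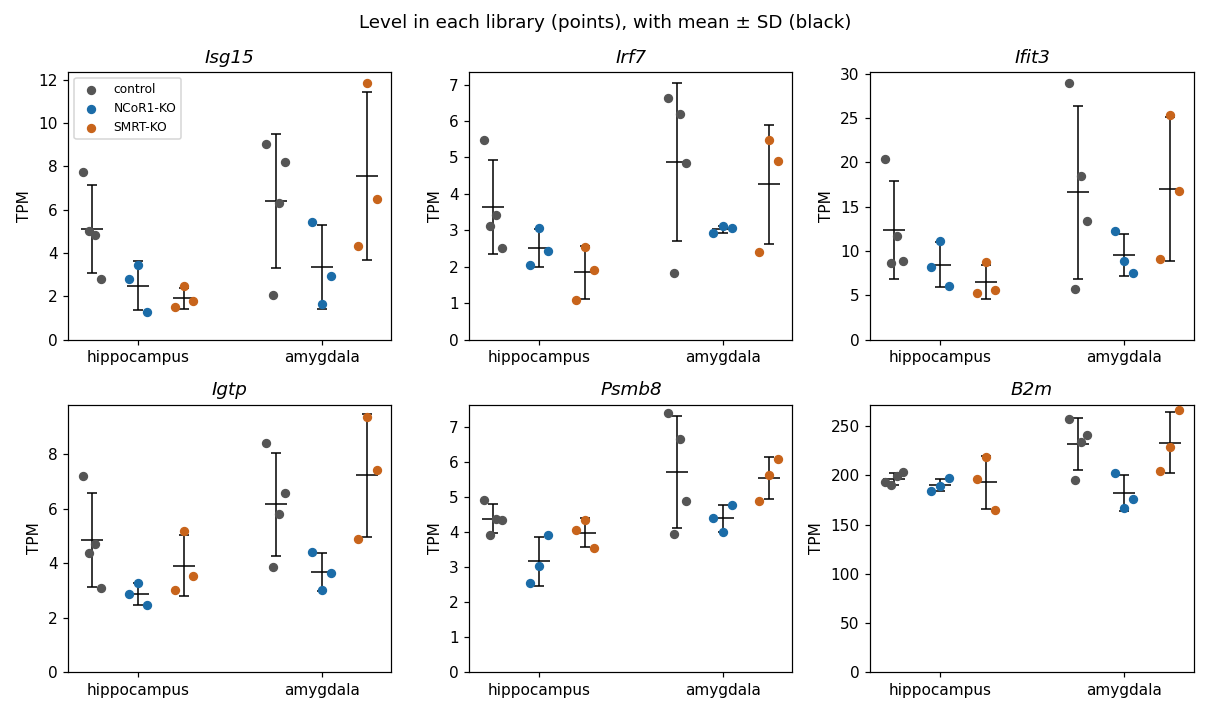
TPM (vertical axis, from 0) of 6 genes in each library (points; grey control, blue NCoR1-KO, orange SMRT-KO) with mean ± SD over the libraries of a group (black), for hippocampus and amygdala (horizontal axis). Isg15 in the 3 hippocampus SMRT-KO libraries (1.51 to 2.46 TPM) lies below the controls (2.81 to 7.73 TPM), while B2m in hippocampus lies close together (165 to 218 TPM over all libraries).

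Lgals3bp and Rtp4, the other interferon-induced members besides Xaf1, were below control in all 4 comparisons. Lgals3bp was at 46.6, 22.95, 36.9 and 28.7 TPM in amygdala controls, 25.0, 28.6 and 20.2 TPM in NCoR1-KO and 23.3, 17.4 and 30.6 TPM in SMRT-KO (-0.41 ± 0.23 and -0.48 ± 0.23). In hippocampus it was at 30.0, 19.1, 18.9 and 13.4 TPM in controls, 13.3, 18.7 and 21.9 TPM in NCoR1-KO and 13.2, 20.6 and 9.59 TPM in SMRT-KO (-0.14 ± 0.29 and -0.47 ± 0.29). The groups overlapped in both tissues. Rtp4, a chaperone of receptors, differed by -0.48 ± 0.25 in amygdala NCoR1-KO and -0.47 ± 0.22 in hippocampus SMRT-KO.

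Xaf1, an interferon-induced gene of cell death (chr11:72301629-72313733, plus strand, GRCm38), varied widely within genotypes. In hippocampus it was at 14.6, 7.22, 1.58 and 1.16 TPM in controls 1 to 4, 7.32, 1.90 and 4.92 TPM in NCoR1-KO 1 to 3 and 1.04, 1.23 and 1.67 TPM in SMRT-KO 1 to 3. Its amygdala levels were 13.3, 6.40, 1.48 and 1.93 TPM, 7.78, 0.99 and 3.97 TPM, and 1.3, 2.82 and 1.25 TPM in the same order. The libraries high in one tissue (controls 1 and 2, NCoR1-KO 1 and 3) had the same genotype and number as those high in the other, and the controls held the highest library of each tissue as well as values near the lowest. The differences from control were 0.02 ± 0.64 and -0.25 ± 0.62 in NCoR1-KO and -1.17 ± 0.64 and -0.96 ± 0.62 in SMRT-KO, for hippocampus and amygdala in turn. Without control 1 the NCoR1-KO differences of Xaf1 were 0.55 ± 0.53 and 0.23 ± 0.54, the second with the other sign. The sources used here give neither cross nor litter for any library, and not whether the controls share the parentage of either knockout. Since the 4 controls were not alike at Xaf1, a difference from control here is one from the mean of unlike libraries.

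**Figure D5:**
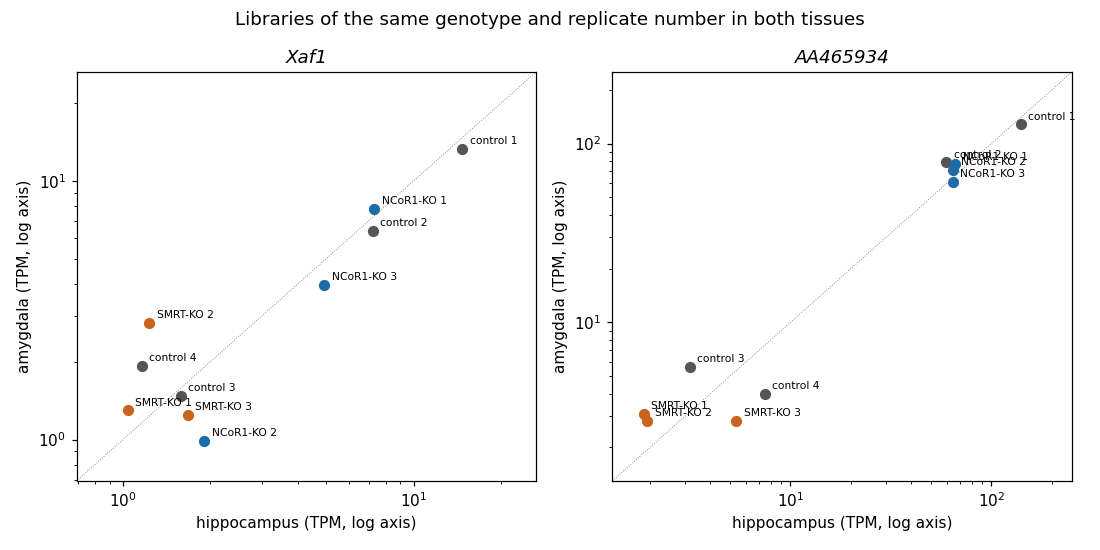
Level of Xaf1 (left) and of AA465934, another gene of chromosome 11, chosen after its values were seen (right), in hippocampus (horizontal) and amygdala (vertical) for libraries of the same genotype and number, in TPM on log axes; the dotted line marks equal levels. Control 1 is highest for both genes, and AA465934 is at 59.6 TPM or more in controls 1 and 2 and NCoR1-KO and at 7.46 TPM or less in the other libraries.

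The knockouts were also compared with each other, a comparison in which the controls enter only through the estimate of the spread. In hippocampus 8 of 31 members were lower in NCoR1-KO than in SMRT-KO, against 44.3% of all genes, and 23 were higher, with a median of 0.16 (all genes 0.02). None passed (0% of all genes) and 0 had an unadjusted p under 0.05 in either direction (2.77% of all genes lower, 3.82% higher). The libraries did not overlap for 2 members, Irf9 and Xaf1, both higher in NCoR1-KO, against 6.44% of all genes higher and 5.01% lower. Without SMRT-KO 2 there was no overlap for 12 higher members (14.2% of all genes higher), 2 of them at an unadjusted p under 0.05. Without NCoR1-KO 3 it was 8 (11.6%), without NCoR1-KO 1 it was 4 (9.79%), and the median was 0.06 without SMRT-KO 3 and 0.09 without NCoR1-KO 2. In amygdala 28 of 32 were lower in NCoR1-KO, against 50.1% of all genes, with a median of -0.34 (all genes -0.00), and 0 passed, where limma called 11.5% of all genes (6.46% lower and 5.03% higher). At an unadjusted p under 0.05, 8 members were lower and 0 higher (15.9% and 15.2% of all genes), and the libraries did not overlap for 9 lower members and for Irf9, which was higher (19.6% and 18.8%). The count of 8 moved to 13 without SMRT-KO 1, to 2 without SMRT-KO 2 or SMRT-KO 3, to 3 without NCoR1-KO 2 or NCoR1-KO 3, to 5 without NCoR1-KO 1 or control 4, and to 12 without control 2. The number without overlap was 22 without SMRT-KO 1 (26.9% of all genes lower) and 15 without NCoR1-KO 1 (24.3%). Igtp had the smallest p, with a difference of -0.78 ± 0.25 (limma, adjusted p = 0.0644), and B2m differed by -0.35 ± 0.12 (adjusted p = 0.0727). With only the 2 knockout groups in the fit, Igtp and Gbp3 passed (adjusted p = 0.047 and adjusted p = 0.0155). Leaving out control 2 or SMRT-KO 1 gave 3 members past the threshold and leaving out control 1 gave 1, Gbp3. Microglia markers differed here too, with 10 of 10 lower in amygdala NCoR1-KO than in SMRT-KO and 7 past the test (median -0.35). Oligodendrocyte markers were lower in NCoR1-KO for 6 of 6, with a median of -1.06, and 6 had no overlap and an unadjusted p under 0.05 while 0 passed. Markers of mural cells and fibroblasts were lower for 8 of 8 (-0.20, 2 past the test), of endothelium for 8 of 10 (-0.21, 1 past it), of astrocytes for 5 of 6 (-0.16, 1 past it) and of choroid plexus for 6 of 6 (-0.70, 0 past it). The part of these cells was not tested.

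The difference between tissues in the effect of each knockout was tested by the interaction term over 14210 genes. For NCoR1-KO 0 of 31 members passed (0% of all genes), 26 had a higher (less negative) effect in hippocampus, and the median was 0.17 (all genes 0.03). Of all genes, 40.9% had a lower NCoR1-KO effect in hippocampus. Stat2 was the 1 member at an unadjusted p under 0.05, with 0.27 ± 0.11 (limma, adjusted p = 0.998), where 1.71% of all genes were higher at that level. For SMRT-KO 0 of 31 passed (0% of all genes), 26 had a lower effect in hippocampus, against 45.9% of all genes, and the median was -0.24 (all genes 0.02). Isg15 (-1.27 ± 0.58, adjusted p = 0.543) and Ifit2 (-0.48 ± 0.22, adjusted p = 0.563) had an unadjusted p under 0.05, against 4.83% of all genes that were lower at that level. Without control 1 of both tissues 0 members passed in either term, 25 of 31 had a higher NCoR1-KO effect (median 0.18) and 26 a lower SMRT-KO effect in hippocampus (median -0.22), and the member at an unadjusted p under 0.05 was Usp18 for SMRT-KO (-0.93 ± 0.39) with 0 for NCoR1-KO. The knockout effects on the set were therefore not shown to differ between the tissues.

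Of the 101 other genes listed for the pathway, 80 were tested in hippocampus and 88 in amygdala, and 0 passed in a knockout against control (limma). In hippocampus NCoR1-KO 47 of 80 lay below control with a median of -0.04, and 4 were lower and 1 higher at an unadjusted p under 0.05 (all genes: 50% below, 2.65% lower and 1.88% higher at that p). In hippocampus SMRT-KO 58 of 80 lay below with a median of -0.10, and 6 were lower and 0 higher at that p (all genes: 56% below, 3.48% and 2.13%). Cxcl10, a chemokine induced by interferon gamma, was at 3.26, 0.70, 1.40 and 0.79 TPM in hippocampus controls and 0.68, 0.23 and 0.00 TPM in SMRT-KO (-0.89 ± 0.32, limma, adjusted p = 0.779). In amygdala NCoR1-KO 74 of 88 lay below with a median of -0.16, and 17 were lower and 1 higher at an unadjusted p under 0.05 (all genes: 58.3% below, 9.81% and 3.3%). The smallest p there belonged to Sp100, a nuclear body protein gene, at -0.56 ± 0.15 (limma, adjusted p = 0.158). In amygdala SMRT-KO 63 of 88 lay below with a median of -0.05, and 6 were lower and 3 higher at that p (all genes: 58% below, 13.5% and 8.42%). Psme1, an activator of the immunoproteasome, had the smallest p there, at -0.46 ± 0.09 (limma, adjusted p = 0.0572). Other interferon-gamma GTPases were below control for 11 of 11 in amygdala NCoR1-KO (median -0.51), 10 of 10 in hippocampus SMRT-KO (median -0.29), 9 of 10 in hippocampus NCoR1-KO (median -0.30) and 9 of 11 in amygdala SMRT-KO (median -0.23). Without control 1 the median of these GTPases was -0.37, -0.13, -0.10 and 0.04 in the same order, with 11, 9, 8 and 5 below control. For the whole pathway list without control 1, 46 of 80 and 58 of 80 lay below control in hippocampus NCoR1-KO and SMRT-KO (medians of -0.02 and -0.06), and 68 of 88 and 47 of 88 in amygdala (medians of -0.12 and -0.01). At an unadjusted p under 0.05 there were then 2 lower and 1 higher, 1 and 0, 13 and 0, and 4 and 4 of these genes. Receptors and kinases had differences near 0, with medians of -0.08 in amygdala NCoR1-KO and -0.04 in hippocampus SMRT-KO.

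In the comparison of the knockouts in amygdala 4 of these 88 genes passed, 2 in each direction, where 11.5% of all genes did. Tmem173, which encodes the DNA-sensing adaptor STING, was lower in NCoR1-KO, at 3.41, 3.55 and 3.37 TPM against 5.21, 5.08 and 5.12 TPM in SMRT-KO (-0.47 ± 0.09, limma, adjusted p = 0.0157), with controls between them at 4.75, 3.99, 4.58 and 4.54 TPM. Ifitm1, a paralog of Ifitm3, was lower as well (-0.53 ± 0.12, adjusted p = 0.0233). Adar, the enzyme that edits double-stranded RNA, was higher in NCoR1-KO (0.31 ± 0.06, adjusted p = 0.0191), and so was Psme1 (0.34 ± 0.09, adjusted p = 0.0434).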

How the data were processed

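Gene-level TPM values were deposited by the authors in a table per tissue, with 10 libraries each, values at 2 decimals and 0 columns of samples that are not labelled. Per the submitters' processing notes, which give no order, RSEM 1.3.3, STAR 2.5.3a, fastp 0.21.0 and bcl2fastq were used with build mm10, and per the labels' protocols the libraries were TruSeq stranded mRNA libraries. The annotation and the depth are not given in the sources used here.

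From these values log2(TPM + 1) was computed and fitted in R 4.3.3 with limma 3.58.1 (moderated variances with an expression trend) over all 10 libraries of a tissue, or all 20 libraries for tissue differences, on genes with at least 1 TPM in at least 3 of 10 libraries. P-values were adjusted by Benjamini-Hochberg over all genes tested, with 0.05 as threshold. Differences carry the model's SE and understate changes of low genes. The script was tested on simulated data. Groups came from the labels, which name no batch. The gene targeted in SMRT-KO is not reported here.

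Members and lists were chosen with earlier results of these data known. Every member may be named; values per library are given for 12 members picked by role, for members that passed and for the 4 of smallest p in a knockout comparison, and other pathway genes are named when they passed or were among the 3 of smallest p. Alternatives were another pseudocount, other filters, quantile normalization, fits of only the groups compared, a block for the replicate number and each library left out. Leaving out each library for the counts of members, and control 1 for the lists, was added after the data were seen. Positions are from GENCODE M21 (GRCm38) and promoters from RefSeq (GRCm38.p6).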

Additional observations from a re-analysis of the deposited data

Results flagged for a closer look

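Ifitm3, the membrane restriction factor, was at 63.9 TPM in hippocampus control 1, while the other 3 hippocampus controls lay between 30.2 and 32.4 TPM. On the log2(TPM + 1) scale the gap took up 0.906 of the group's range. It was the 1 value found among 68 sets of 4 control libraries (34 quantities in each tissue), where chance gives about 1 in 20. For independent sets, 1 such value is no more than chance would give. The sets of a tissue share the same 4 libraries, however, and are not independent. The count therefore does not bear on the level of control 1 over the whole set of members. In amygdala control 1 was also the highest control for Ifitm3, at 56.7 TPM against 23.4 to 48.0 TPM.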

How the results depend on the processing

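The count of members called in a knockout against control was 0 under every alternative except without amygdala control 2, where it was 1 in NCoR1-KO (range 0 to 1 over the libraries left out). Between the knockouts in amygdala it was 2 with only the groups compared and 0 to 3 with a library left out. Between control tissues it was 0 with a pseudocount of 0.1, 1 with quantile normalization, 1 without control 1 of both tissues (added after seeing the data) and 0 to 8 with a library left out. Over all genes, the calls in amygdala NCoR1-KO were 60, but 16 with no filter, 4 with only the groups compared and 0 to 126 with a library left out, and in amygdala SMRT-KO 16, but 2 with no filter, 143 with a filter at a mean of 5 TPM, 2 with only the groups compared and 0 to 698 with a library left out. Between the knockouts in amygdala the 1679 calls became 243 to 2181 with a library left out. In hippocampus the count of 0 became 1 in NCoR1-KO with quantile normalization or only the groups compared, 1 in SMRT-KO with quantile normalization, 5 between the knockouts with only the groups compared, and 0 to 1 with a library left out in each. The SMRT-KO interaction had 0 to 18. Ifit2 in amygdala SMRT-KO turned to -0.0074 without SMRT-KO 2 (-0.0074 to 0.34 with a library left out). The cause of these changes was not tested. Depth is unknown and its limit cannot be given.

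With the replicate number as a block, calls over all genes were 4 in amygdala SMRT-KO, 854 between the knockouts in amygdala and 41 in amygdala NCoR1-KO, and members called were 0 in each knockout comparison and 3 between control tissues, where Irf9 (-0.30, adjusted p = 0.0309) and Trim30a passed and Lgals3bp did not (adjusted p = 0.0523, limma). The numbers were not shown to pair the samples over all libraries. Those of the same number in both tissues had correlations of deviations from 0.0008 to 0.48, over 0.1 for 8 of 10. Of these 10, 5 correlated best with their own number, and within a tissue 4 of 18 pairs were over 0.1. High values of Xaf1, AA465934, S100a8 and S100a9 did recur by number in both tissues, and whether the numbers mark the same animals was not settled. Apart from this block, tests between tissues took the libraries as unpaired.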

Other observations

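AA465934 and B9d1, genes of chromosome 11 chosen after their values were seen, divided the libraries as Xaf1 did in part. Xaf1 starts 9.99 Mb from Ncor1 (chr11:62316426-62458541, minus strand, GRCm38). The genes most like Xaf1 were ranked, after its values had been seen, by the lower of 2 correlations, over the 10 libraries of each tissue. Of the first 20, 17 had a position. On chromosome 11 within 15 Mb of Xaf1 lay 4 of these 17 (23.5%), where 2.79% of all placed genes do. Among the first 50 it was 5 of 46 placed genes (10.9%), and among the first 100 it was 6 of 95 (6.32%). This is a description of a list chosen from the data.

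AA465934, a gene of unnamed function on the far side of Xaf1 from Ncor1 (chr11:83291699-83294632), took 3 levels. It was at 140 and 128 TPM in control 1 of hippocampus and amygdala, at 59.6 and 78.6 TPM in control 2, at 61.3 to 76.6 TPM in the 6 NCoR1-KO libraries and at 1.86 to 7.46 TPM in controls 3 and 4 and all SMRT-KO libraries. B9d1, a gene of the primary cilium that starts 0.811 Mb from Ncor1, was at 29.9 to 34.8 TPM in hippocampus controls 1 and 2 and NCoR1-KO and at 17.2 to 24.7 TPM in the other hippocampus libraries. In amygdala it was at 38.1 to 47.1 TPM and at 19.3 to 27.9 TPM. Xaf1 itself was low in NCoR1-KO 2 in both tissues, unlike AA465934 and B9d1. The sources used here do not state the parentage of the libraries. Whether the 4 controls are of mixed parentage, and what that would mean for each difference from control, was not tested. Ncor1 was lowest among the controls in control 1 of both tissues, at 81.6 TPM (others 119 to 137 TPM) and 71.3 TPM (others 117 to 127 TPM).

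Control 3 stood out for 2 genes of neutrophils, also named after their values were seen. They come from a list of blood myeloid markers that also held Ngp, Camp, Ly6c2, Ccr2 and Plac8, whose levels are not given here. S100a8 was at 24.2 TPM and S100a9 at 23.3 TPM in hippocampus control 3, and at 17.8 and 19.5 TPM in amygdala control 3, while no other library was above 3.17 TPM for either gene. The member score of control 3 was 0.14 in hippocampus and 0.21 in amygdala.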
